A study of Mus musculus with 4 samples.

Results

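The histone genes described here are the 60 gene symbols, of 13978 in the deposited matrix, that begin with Hist and a digit. They were grouped by the class named in the symbol into 5 H1, 16 H2A, 16 H2B, 11 H3 and 12 H4 genes. The rule uses the symbol alone and no measured value, and all 60 had at least 20 UMIs (unique molecular identifiers, each standing for 1 captured RNA molecule) over both groups. In the PBS control group, wild-type CD45.1 mice received PBS by tail vein. In the B-ALL environment group, wild-type CD45.1 mice received 150000 primary tumor cells, named LN768, from the lymph node of 1 leukemic Cd45.2+/+ Ebf1+/- Pax5+/- mouse. After 3 weeks, host bone marrow cells that carried KIT and CD45.1 and lacked lineage markers and CD45.2 were sorted and sequenced with a 10x Genomics 3' droplet kit. Although 2 samples per group are labelled, single cells are marked only by group, so each group was treated as 1 sample and no difference between groups could be tested. All tumor cells came from 1 leukemic mouse, and the age and sex of the host mice were not used here.

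Histones are the proteins around which DNA is wound. H2A, H2B, H3 and H4 form the nucleosome core, and H1 linker histones bind where DNA enters and leaves it. The clustered genes listed here supply new histones when DNA is copied, and their RNA is known to be abundant in S phase and scarce outside it. Most of these RNAs end in a short stem-loop that SLBP, the stem-loop binding protein, holds, and not in a poly(A) tail. A kit that primes on poly(A) therefore sees such RNA through polyadenylated forms or through stretches of A within it, and UMIs here count captured molecules, not all histone RNA.

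The stem-loop is what sets these RNAs apart from nearly all others. A script found it in the annotated transcripts of 43 of the 60 histone genes (71.7%), against 79 of 58797 protein-coding transcripts in all (0.134%, GENCODE M21, GRCm38). The letters were not found in the annotated transcripts of the remaining 17. Some of these have short annotated transcripts, such as Hist1h4k (312 bases) and Hist1h2bn (381). Such annotation may stop before the 3' end, so a missing match does not show that the RNA lacks the stem-loop. The core in capitals below, 16 bases, occurred in 8 spellings. The 6 members below are shown because their folds, given further on, differ widely, from that of Hist1h4h, far lower in the B-ALL environment, to that of Hist3h2ba, the member that was higher. Coordinates are GRCm38, the sequence is read 5' to 3' on the strand named, and capitals mark the stem-loop.
Hist1h4h, chr13:23531451-23531480, + strand: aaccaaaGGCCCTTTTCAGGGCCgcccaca
Hist1h4d, chr13:23581943-23581972, + strand: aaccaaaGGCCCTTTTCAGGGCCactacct
Hist1h4i, chr13:22040959-22040988, - strand: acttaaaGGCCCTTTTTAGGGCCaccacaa
Hist1h2ap, chr13:21833026-21833051, - strand: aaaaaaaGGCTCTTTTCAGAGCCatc
Hist1h1e, chr13:23621775-23621804, - strand: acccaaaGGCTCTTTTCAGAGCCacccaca
Hist3h2ba, chr11:58949342-58949371, + strand: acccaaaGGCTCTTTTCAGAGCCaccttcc
Hist1h4h and Hist1h4d carry the same 16 bases, and so do Hist1h2ap, Hist1h1e and Hist3h2ba. The 6 were picked for unlike folds, and how the core bears on the fold was not tested. The core of Hist1h2ap, Hist1h1e and Hist3h2ba was the most frequent, in 25 of the 43 members, and the core of Hist1h4h was in 6.

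The PBS control held 5882 cells and 68391214 UMIs, and the B-ALL environment 5882 cells and 76059014 UMIs, with medians of 10189 and 10458 UMIs per cell. The 2 groups shared 18 cell barcodes. The shallowest control cell had 3070 UMIs, and 190 cells of the B-ALL environment lay below that. Mitochondrially encoded genes made up 3.56% of control UMIs and 5.14% of B-ALL environment UMIs. Kit, the gene of the sorted receptor, was at 369.8 CPM in control cells and 206 CPM under B-ALL. Here CPM is UMIs per 1000000 UMIs after scaling with trimmed means of M values (TMM). Pairs of levels below give the control first, and a fold is the B-ALL environment over the control. Intervals in brackets are 95% intervals of counting error only and say nothing of differences between mice or libraries. Group, mice and library preparation cannot be told apart in these data.

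RNA of all 5 histone classes was lower in the B-ALL environment. Summed over the 60 genes, 436275 control UMIs (6458 CPM) stood against 252882 UMIs (3284 CPM), which is 1.97-fold lower (log2 fold -0.98 [-0.98, -0.97]). As a share of all UMIs, histone RNA was 0.638% [0.636, 0.640] for the control against 0.332% [0.331, 0.334] (Wilson 95% intervals). Of the 60 genes, 59 were lower (as were 49.7% of all genes), and 49 were lower by over 1.5-fold, while 8.08% of all 13978 genes were lower by over 1.5-fold. None of the 60 was higher by over 1.5-fold, against 12.6% of all genes. The median log2 fold was -1.21 over the members and 0.00 over all genes. No test of significance underlies these counts, since each group was 1 sample.

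The classes differed in how far they were lower. H1 went from 2160.3 to 1317 CPM, a log2 fold of -0.71 [-0.73, -0.70]. H2A went from 2227 to 1187 CPM, a log2 fold of -0.91 [-0.92, -0.90]. H2B went from 602 to 258 CPM, a log2 fold of -1.22 [-1.25, -1.20]. H3 went from 570.4 to 210.1 CPM, a log2 fold of -1.44 [-1.47, -1.41], and H4 from 898 to 312 CPM, a log2 fold of -1.53 [-1.55, -1.51]. The linker histones had the smallest difference and H4 the largest. The counting intervals of the 5 class folds did not overlap one another. They treat each UMI as independent, however, and cannot tell whether the order holds between mice. Among all genes, 6.42% had a lower fold than the H1 sum, 4.73% a lower fold than H2A, 2.83% than H2B, 2.05% than H3 and 1.75% than H4. The makeup of the histone pool was accordingly different. H1 made up 33.5% of control and 40.1% of B-ALL environment histone UMIs, whereas H4 made up 13.9% and 9.49% and H3 8.83% and 6.40%. H2A held a similar share in both, 34.5% and 36.1%, and H2B had 9.32% and 7.86%.

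**Figure D1:**
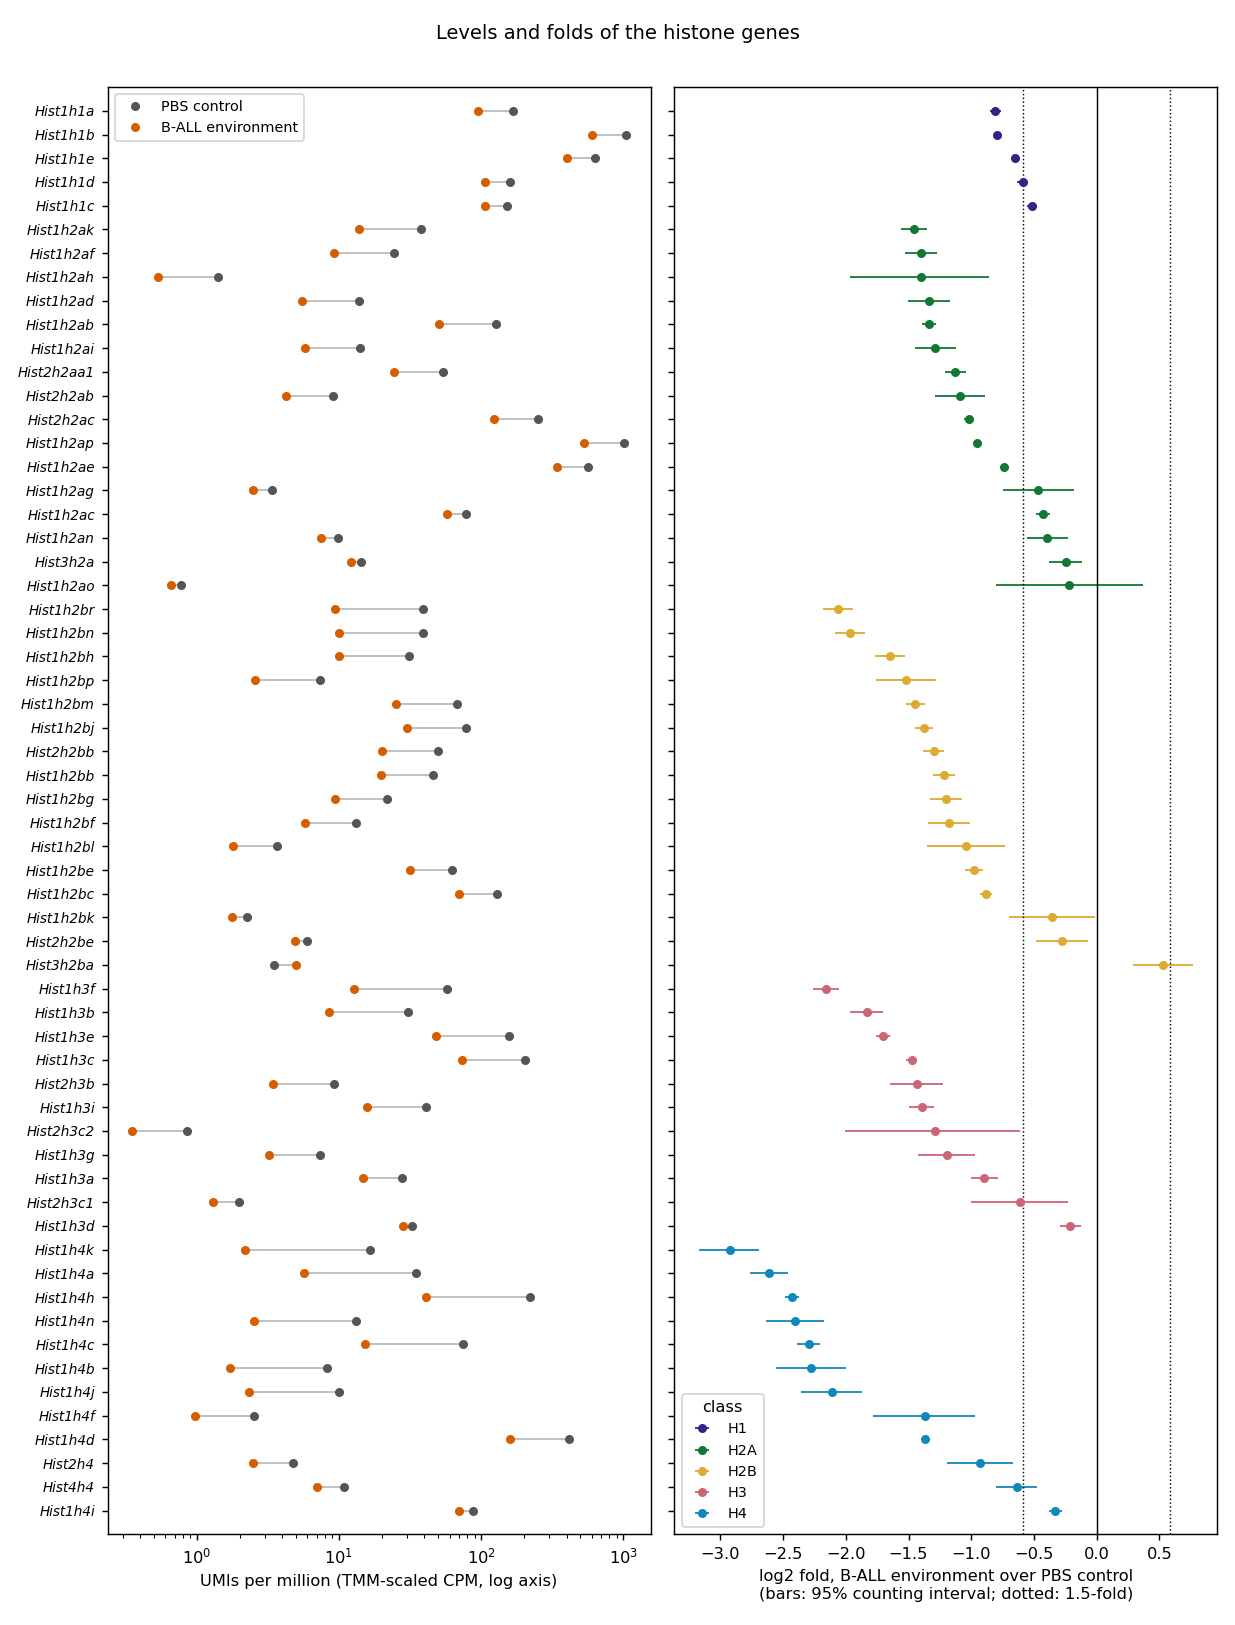
Left, level of each histone gene in CPM (log axis) in the PBS control (grey) and the B-ALL environment (orange); right, log2 fold of the B-ALL environment over the control by class, with 95% counting intervals and dotted lines at 1.5-fold. All genes but Hist3h2ba lie left of 0, and the H4 genes reach from -0.33 (Hist1h4i) to -2.93 (Hist1h4k).

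The 5 linker histone genes, all on chromosome 13, were close to one another in fold, from -0.52 to -0.81, and 4 of the 5 were lower by over 1.5-fold. Hist1h1b (chr13:21779883-21780625) had the most UMIs of any member, at 1046 and 604 CPM (-0.79 [-0.81, -0.77]). Its share of H1 UMIs was 48.4% among control cells and 45.9% under B-ALL. Hist1h1e, the next in UMIs, was at 633 and 404 CPM (-0.65), and Hist1h1a at 167 and 95.6 CPM (-0.81). Hist1h1d was at 160.4 and 106 CPM (-0.59). Hist1h1c, at 153 and 107 CPM, had the smallest difference of the class, -0.52 [-0.56, -0.47], and was the 1 linker gene within 1.5-fold. The range was narrower than in any other class.

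In the H2A class 11 of 16 genes were lower by over 1.5-fold, and the median log2 fold was -1.05. Hist1h2ap, at 1019.9 and 528 CPM (-0.95 [-0.97, -0.93]), supplied 45.8% and 44.5% of H2A UMIs. Its annotated copy Hist1h2ao shares 93.5% of its 50-base stretches with Hist1h2ap, and only 0.770 and 0.662 CPM were assigned to Hist1h2ao, so the values of this pair are uncertain as to which gene they belong to. Hist1h2ae was at 567 and 340.5 CPM (-0.74) and Hist2h2ac, on chromosome 3, at 251 and 124 CPM (-1.02). Of the less abundant members, Hist1h2ab was at 127 and 50.5 CPM (-1.33), Hist1h2ak at 37.9 and 13.8 CPM (-1.46) and Hist1h2af at 24.2 and 9.17 CPM (-1.40). Hist2h2aa1, at 53.7 and 24.6 CPM (-1.13), shares 89.2% of its 50-base stretches with Hist2h2aa2. Hist1h2ai (14.2 and 5.81 CPM), Hist1h2ad (13.9 and 5.49 CPM), Hist2h2ab (9.03 and 4.25 CPM) and Hist1h2ah (1.41 and 0.532 CPM) had log2 folds of -1.29, -1.34, -1.09 and -1.40. The 5 members within 1.5-fold were Hist1h2ac, Hist3h2a, Hist1h2an, Hist1h2ag and Hist1h2ao. Hist1h2ac, the most abundant of these, was at 78.2 and 58.1 CPM (-0.43 [-0.49, -0.37]), and Hist3h2a, on chromosome 11, at 14.4 and 12.1 CPM (-0.25 [-0.38, -0.12]). Hist3h2a overlaps Trim17 on the same strand, so its UMIs may include that gene's. Hist1h2an was at 9.80 and 7.47 CPM (-0.39) and Hist1h2ag at 3.40 and 2.47 CPM (-0.46). The interval of Hist1h2ao, [-0.80, 0.37], was the only one of the 60 to hold 0.

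In the H2B class 13 of 16 genes were lower by over 1.5-fold, and the median log2 fold was -1.21. Hist1h2bc, the H2B gene with the most UMIs, was at 129.5 and 70.3 CPM, a log2 fold of -0.88 [-0.93, -0.83]. It stood apart in the cell cycle ranges described below. Hist1h2br (39.3 and 9.39 CPM) and Hist1h2bn (39.1 and 10.0 CPM) had the largest differences of the class, -2.06 [-2.18, -1.94] and -1.97 [-2.09, -1.85]. Hist1h2br shares 88.7% of its 50-base stretches with Hist1h2bq. Hist1h2bh was at 31.4 and 10.0 CPM (-1.65), and Hist1h2bp at 7.40 and 2.58 CPM (-1.52). Hist1h2bm was at 68.1 and 25.01 CPM (-1.45), Hist1h2bj at 78.6 and 30.2 CPM (-1.38) and Hist2h2bb at 49.7 and 20.2 CPM (-1.30). Hist1h2bb was at 46.1 and 19.8 CPM (-1.22), Hist1h2bg at 21.7 and 9.43 CPM (-1.20) and Hist1h2bf at 13.1 and 5.78 CPM (-1.18). Hist1h2bl was at 3.69 and 1.79 CPM (-1.04). Hist1h2be, at 62.8 and 31.9 CPM (-0.98), has an annotated span that overlaps part of Hist1h1e on the same strand, and UMIs of those 2 genes may have been split between them.

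Hist3h2ba was the exception among the 60, higher in the B-ALL environment. Its 234 control UMIs stood against 384, or 3.46 against 4.99 CPM (log2 fold 0.53 [0.29, 0.77]). It is at chr11:58948920-58949533, next to Hist3h2a and apart from the large clusters. Of its 10 map clusters with at least 20 UMIs, it was higher in 5 and lower in 5. The other H2B genes within 1.5-fold were Hist2h2be, at 5.92 and 4.90 CPM (-0.27), and Hist1h2bk, at 2.26 and 1.77 CPM (-0.36).

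All 11 H3 genes were lower, 10 of them by over 1.5-fold, with a median log2 fold of -1.40. Hist1h3c and Hist1h3e supplied most H3 UMIs. Hist1h3c was at 204 and 73.3 CPM, a log2 fold of -1.48 [-1.52, -1.43], and Hist1h3e at 158 and 48.5 CPM, -1.70 [-1.76, -1.65]. Hist1h3f had the largest difference of the class, 57.3 against 12.8 CPM (-2.16 [-2.26, -2.06]), followed by Hist1h3b, 30.4 against 8.52 CPM (-1.83). Hist2h3b was at 9.25 and 3.43 CPM (-1.43), Hist1h3i at 41.2 and 15.6 CPM (-1.40), Hist1h3g at 7.31 and 3.19 CPM (-1.19) and Hist1h3a at 27.7 and 14.9 CPM (-0.90). The 2 rarest, Hist2h3c1 (1.98 and 1.30 CPM) and Hist2h3c2 (0.859 and 0.351 CPM), had wide intervals around -0.61 and -1.29. Hist1h3d, in the same stretch of chromosome 13 as Hist1h4d, was the only H3 gene within 1.5-fold, at 32.7 and 28.3 CPM (-0.21 [-0.30, -0.12]).

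The H4 genes spread most. All 12 were lower and 11 were lower by over 1.5-fold, and their median log2 fold of -2.19 was the lowest of the 5 classes. Hist1h4h (chr13:23531050-23531519) was at 222 and 41.1 CPM (-2.43 [-2.49, -2.38]). With it, 7 of the 12 genes were lower by more than 2 on the log2 scale. Hist1h4k was at 16.5 and 2.17 CPM (-2.93 [-3.17, -2.69]), the lowest fold of all members, and Hist1h4a at 34.9 and 5.71 CPM (-2.61). Hist1h4n was at 13.2 and 2.51 CPM (-2.40), Hist1h4c at 74.6 and 15.2 CPM (-2.30), Hist1h4b at 8.23 and 1.70 CPM (-2.27) and Hist1h4j at 9.98 and 2.31 CPM (-2.11). Hist1h4d, the main H4 gene by UMIs, differed less, at 413 and 160.2 CPM (-1.37 [-1.40, -1.34]), as did Hist1h4f, at 2.52 and 0.974 CPM (-1.37). Hist2h4 on chromosome 3 was at 4.75 and 2.49 CPM (-0.93) and Hist4h4 on chromosome 6 at 10.9 and 6.99 CPM (-0.64). Hist1h4i (chr13:22040636-22041362) was nearly level, at 88.4 and 70.3 CPM (-0.33 [-0.38, -0.28]).

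Because Hist1h4h and Hist1h4i differed so unequally, the order of the H4 genes was not the same in the 2 groups. After Hist1h4d, with 45.9% and 51.4% of H4 UMIs, Hist1h4h came next in the control with 24.7%. In the B-ALL environment Hist1h4i took that place with 22.6%. Close copies make single H4 values less certain than the class sum, since 71.1% of the 50-base stretches of Hist1h4k are also in Hist1h4a, whereas Hist1h4d and Hist1h4i share 8.17% of those of Hist1h4d.

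Lower levels were seen among genes with few and with many shared stretches. Of the 34 genes with 50% or less of their 50-base stretches in another annotated histone gene, 27 were lower by over 1.5-fold, with a median log2 fold of -0.95. Of the 26 genes with over 50% shared, 22 were lower by over 1.5-fold, with a median of -1.36. All 5 H1 genes were among the 34. Within classes the medians at 50% or less and over 50% were -0.74 and -1.29 in H2A and -1.21 and -1.28 in H2B. They were -0.90 and -1.41 in H3, and -1.37 and -2.40 in H4 (9 and 3 genes). How sharing bears on the folds was not tested.

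Genes that handle histones were near level as a group. A list of 40 histone supply genes (transcription and 3' end processing of histone RNA, chaperones, importins) had 39 in the matrix, of which 19 were lower and 20 higher, with a median log2 fold of 0.03. None of the 39 was lower by over 1.5-fold, and only Zfp473 was higher by that much, at 0.785 and 1.47 CPM. Slbp, whose protein binds the stem-loop, was at 232 and 293 CPM (0.34), and Npat, the coactivator of histone gene transcription, at 46.3 and 49.1 CPM (0.08). Casp8ap2, a processing and transcription factor at histone clusters, was at 134 and 162 CPM (0.27). The histone chaperone Asf1b was at 49.6 and 63.7 CPM (0.36), and Atrx, a chromatin remodeler that acts with the chaperone Daxx, at 439 and 569 CPM (0.38).

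Histone variants have symbols that do not begin with Hist, and most of their genes give polyadenylated RNA, although H2afx also gives a stem-loop RNA in S phase. Of 14 listed, 11 were in the matrix, 6 lower and 5 higher, with a median log2 fold of -0.01. Hinfp, a transcription factor of H4 genes kept in the same list, was at 17.2 and 18.7 CPM (0.13), and with it the list had 6 lower and 6 higher of 12 and a median of 0.03. H1f0, a linker histone of resting and differentiating cells, was at 46.8 and 82.5 CPM (0.82 [0.76, 0.88]), opposite in sign to all 5 clustered H1 genes. H2afy2 was the other variant higher by over 1.5-fold (6.48 and 10.1 CPM), and no variant was lower by that much. H1fx was at 99.7 and 135 CPM (0.44), and H2afx, the variant phosphorylated at DNA breaks, at 284 and 368 CPM (0.38). H2afz was at 2896 and 3048 CPM (0.07), and H2afj at 708 and 514 CPM (-0.46). Of the cell cycle genes used below, the 42 S phase genes had a median log2 fold of 0.02, with 18 lower and 24 higher. The 50 G2/M genes had a median of 0.09, with 12 lower and 38 higher, and of these 92 genes only Gas2l3 was past 1.5-fold (0.73, higher).

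The lower histone RNA was present in every map cluster compared. Cells were grouped into clusters of the authors' map and named from marker genes, and 12 clusters had at least 30 cells in each group. Another cluster, with T and NK cell genes (21 and 32 cells), was left out. All 60 class folds, 5 classes in 12 clusters, were below 0, and 55 of them (91.7%) were lower by over 1.5-fold. With equal cell numbers from both groups in each quartile of S phase gene share (described below), all 60 were again below 0 and 51 (85.0%) were lower by over 1.5-fold. In the HSC-like cluster 1, whose median S phase and G2/M list genes were at -0.20 and -0.28, this moved H1 from -0.67 to -0.50 and H2A from -0.78 to -0.51, both then within 1.5-fold. Single members lower by over 1.5-fold were counted in each cluster among those with at least 20 UMIs there, beside the share of all genes lower by that much. The HSC-like clusters 1 and 8 had 43 of 53 members (6.53% of all genes) and 38 of 49 (7.09%). The multipotent progenitor-like cluster had 41 of 57 (5.12%) and the lymphoid-primed-like 39 of 49 (5.57%). The neutrophil progenitor-like cluster had 45 of 55 (7.06%), the monocyte progenitor-like 47 of 57 (6.7%) and unnamed cluster 7, led by Ccl9 and Cxcr2, 50 of 56 (5.4%). The megakaryocyte-like cluster had 45 of 57 (9.94%), the erythroid-like 43 of 56 (9.66%) and unnamed cluster 0, whose leading genes include Csrp3 and Trib2, 41 of 57 (10.5%). The basophil and mast cell-like cluster had 25 of 48 (6.66%), the lowest share of the 12. Unnamed cluster 11, with medians of 4282 and 4834 UMIs per cell, had 26 of 33 (22.3%). The share among members was thus above that among all genes in each of the 12 clusters. Cell numbers differed between groups, most in the HSC-like cluster 1 (346 control and 1121 B-ALL environment cells) and the erythroid-like cluster (705 and 165).

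TMM scaling was fitted within each cluster, so levels of different clusters are not on a common scale and close ones cannot be ranked. In the control, histone RNA was most abundant in unnamed cluster 7 (9499.6 CPM) and the multipotent progenitor-like cluster (9400.5 CPM). It was 7356 CPM in the megakaryocyte-like cluster, 6811 in the basophil and mast cell-like, 6754 in unnamed cluster 0, 6671 in the erythroid-like and 6409 in the monocyte progenitor-like cluster. Lower levels were found in the HSC-like clusters 8 (5633 CPM, led by mitotic genes such as Ccnb2, Aspm and Cenpf) and 1 (4935 CPM), the lymphoid-primed-like (5205 CPM) and the neutrophil progenitor-like cluster (3942 CPM). Least was found in unnamed cluster 11 (3213 CPM), whose leading genes include globins and immunoglobulins. In the B-ALL environment the basophil and mast cell-like cluster had the most, 5106 CPM, ahead of unnamed cluster 0 (4321 CPM), the multipotent progenitor-like (4260.0 CPM), megakaryocyte-like (4140.2 CPM) and unnamed cluster 7 (4091 CPM). The other clusters were between 1702 CPM (unnamed cluster 11) and 3298 CPM (erythroid-like). The 2 clusters highest in the control were thus not the highest in the B-ALL environment.

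**Figure D2:**
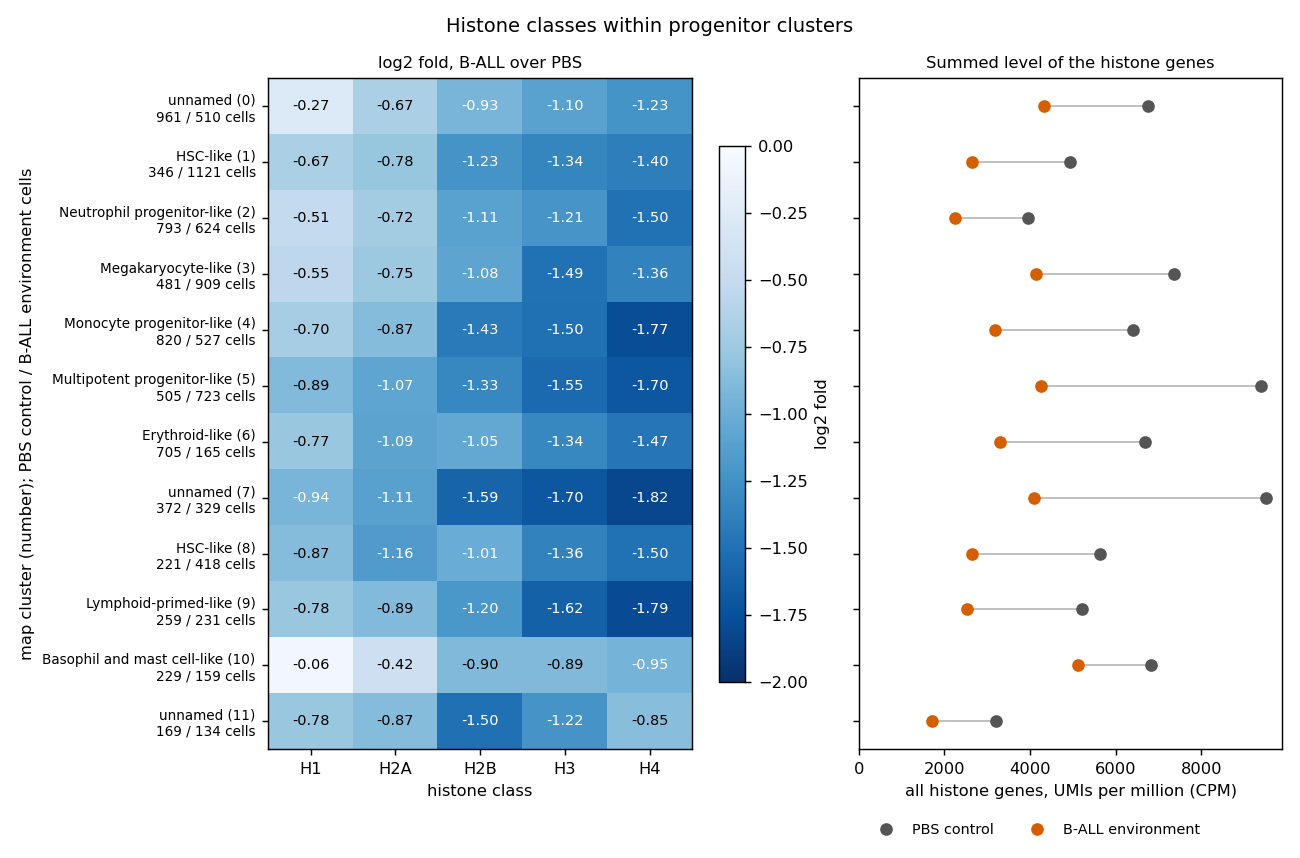
Left, log2 fold of each histone class (columns) in each map cluster (rows, with control and B-ALL environment cell numbers); right, summed level of the 60 histone genes in CPM in both groups. Every fold is below 0; the palest row is the basophil and mast cell-like cluster and the darkest is unnamed cluster 7.

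The order from H1 to H4 held in full in most clusters, though not in all. H2A was lower than H2B in the erythroid-like cluster (-1.09 and -1.05) and the HSC-like cluster 8 (-1.16 and -1.01). H2B and H3 were about level in the basophil and mast cell-like cluster (-0.90 and -0.89). H1 had the smallest difference of the 5 classes in all 12, and H4 the largest in 10, the exceptions being the megakaryocyte-like cluster (H3 -1.49, H4 -1.36) and unnamed cluster 11 (H2B -1.50, H4 -0.85). In cluster 11 the median S phase list gene was 0.94 higher on the log2 scale. With equal cells per S phase quartile there, H4 was at -0.32 with an interval that held 0 [-0.67, 0.03], and H1 and H2A were at -0.35 and -0.40, all within 1.5-fold. H4 was lowest in unnamed cluster 7 (-1.82), the lymphoid-primed-like (-1.79) and the monocyte progenitor-like cluster (-1.77). The summed log2 fold of all members was -1.22 in unnamed cluster 7, -1.14 in the multipotent progenitor-like, -1.10 and -0.91 in the HSC-like clusters 8 and 1, and -1.05 in the lymphoid-primed-like cluster. At equal cells per S phase quartile these were -1.11, -1.07, -1.09, -0.70 and -1.07. The erythroid-like cluster then moved from -1.02 to -0.84, and unnamed cluster 0 from -0.64 to -0.80. The median S phase list gene was at -0.14 in unnamed cluster 7, -0.23 in the multipotent progenitor-like and 0.49 in unnamed cluster 0. How cycle state bears on the differences between clusters was not tested. The smallest differences were in the basophil and mast cell-like cluster, -0.42 over all members. There H1 was at 2311 and 2216 CPM, a log2 fold of -0.06 whose interval held 0 [-0.13, 0.00], while H4 was at 937 and 486 CPM (-0.95). The median G2/M list gene of that cluster was 0.61 higher on the log2 scale, the largest such value of the 12 clusters. Its part in the result was not tested.

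Single genes repeated this across clusters. Hist1h4h was lower in 12 of 12 clusters, by -1.55 in unnamed cluster 11 to -2.78 in the monocyte progenitor-like cluster, where 230.6 CPM stood against 33.5 CPM. In the HSC-like cluster 1 it was at 191 and 35.5 CPM. Hist1h4i ranged from 0.14 in unnamed cluster 0 (79.0 and 86.9 CPM) to -1.11 in unnamed cluster 11. Hist1h1b was lower in 12 of 12, but by only -0.08 in the basophil and mast cell-like cluster (1044 and 989 CPM) and -0.10 in unnamed cluster 0, against -1.20 in the HSC-like cluster 8 (776 and 337 CPM). Hist1h2bc was highest in the HSC-like cluster 8 in both groups, at 333 and 187 CPM (-0.84), while in the 11 other clusters its control level lay between 84.4 and 149 CPM. Hist3h2ba was higher in the HSC-like cluster 8 (6.002 and 13.4 CPM, 11 and 46 UMIs) and the multipotent progenitor-like cluster (5.71 and 9.34 CPM), and lower in the basophil and mast cell-like cluster (13.03 and 8.26 CPM, 24 and 13 UMIs).

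Cells were then ranked, over both groups together, by the share of their UMIs in the S phase list and in the G2/M list, neither of which contains a histone gene, and split into quartiles of equal cell number. A quartile is a range of a score, not a cell type. Over all cells the S phase list took 0.670% of control UMIs and 0.689% of B-ALL environment UMIs, and the G2/M list 0.782% and 0.823%. In the median cell the S phase shares were 0.567% and 0.579%, but the G2/M shares went the other way, 0.428% and 0.388%. The groups filled the G2/M quartiles unequally. From lowest to highest, control and B-ALL environment cells numbered 982 and 1959, 1825 and 1116, 1606 and 1335, and 1469 and 1472. Histone RNA was most abundant in the highest G2/M quartile of both groups, and it was lower in the B-ALL environment in every quartile. In the control, the sum of the 60 genes was 2098 CPM in the lowest G2/M quartile, then 1921, 3917 and 13490.3 CPM. In the B-ALL environment the same quartiles had 1064, 885, 2041 and 6682 CPM. The log2 folds were -0.98, -1.12, -0.94 and -1.01, beside -0.98 over all cells.

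Over S phase quartiles the control levels were 3896, 6043, 6817 and 7687 CPM, and those of the B-ALL environment 1973, 3514, 3498 and 3552 CPM. Control levels were higher in each successive quartile, while those of the B-ALL environment were about level from the second quartile on. The log2 folds were -0.98, -0.78, -0.96 and -1.11. The classes differed here. H1 differed by -0.51 in the second S phase quartile and by -0.87 in the highest, and H4 by -1.32 and -1.73. H2B in the B-ALL environment went from 316 CPM in the second quartile to 211 CPM in the highest, whereas in the control it was 629.5 and 599 CPM. When cells were split by both lists at once, all 16 combinations were lower in the B-ALL environment, by -0.30 to -1.32 on the log2 scale.

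**Figure D3:**
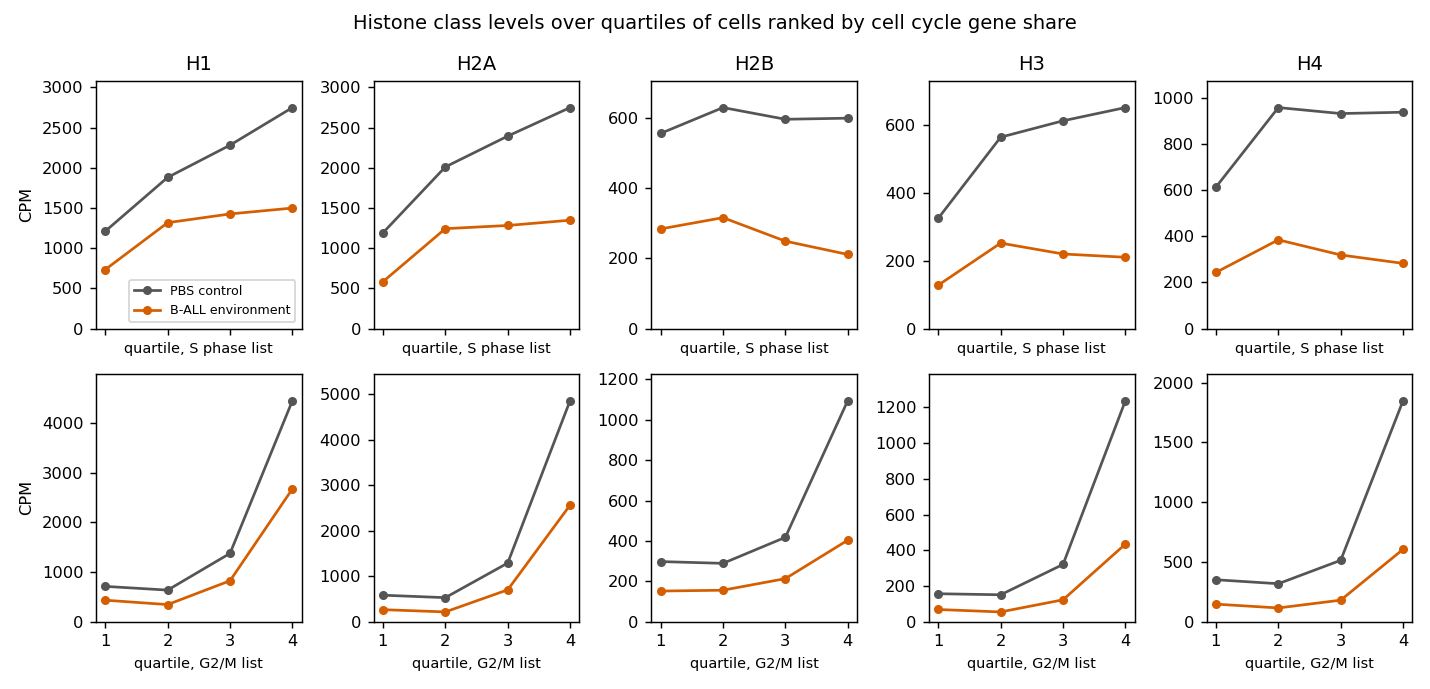
Level of each histone class in CPM over quartiles of cells ranked by the share of S phase genes (top) or G2/M genes (bottom), in the PBS control (grey) and the B-ALL environment (orange). Each point is a sum over the cells of that quartile; the orange line lies below the grey one in all 40 pairs of points.

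Per cell, after each cell was thinned to 3070 UMIs, the median number of histone UMIs was 7 per control cell and 3 per B-ALL environment cell, where the 190 shallower cells were left out. The lower end differed most in relative terms. No histone UMI was seen in 1.94% [1.62, 2.32] of control cells and 11.8% [10.96, 12.6] of B-ALL environment cells (Wilson 95% intervals). At the upper end the 90th percentile was 50 and 25 UMIs. The upper quartile of cells by histone UMIs held 72.5% (control) and 74.3% (B-ALL environment) of them, so the histone UMIs were concentrated in few cells in both groups.

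Members differed in how strongly they followed the cell cycle. As a measure, the level in the highest G2/M quartile was divided by that in the second, where histone RNA was lowest. Each quartile had its own TMM scaling, which enters the ratio. In the control this log2 ratio was 3.80 for Hist1h1b, 3.52 for Hist1h2ap, 4.66 for Hist1h3c and 2.63 for Hist1h4h. It reached 5.201 for Hist1h2af. At the other end Hist3h2ba had 0.28, Hist3h2a 0.24 and Hist1h2ac 0.52, near level across the cycle. Hist1h2bc was lower in the highest G2/M quartile than in the second in both groups, with -0.73 (control) and -1.18 (B-ALL environment), and the only other negative value was that of the rare Hist1h2ao in the control. It is a gene whose polyadenylated RNA is known from cells that have left the cycle.

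The genes that followed the cycle least also tended to have smaller differences between groups. Of the 45 members with a 4-fold or larger range in the control, 42 were lower by over 1.5-fold, with a median log2 fold of -1.37. Of the 15 members with a smaller range, 7 were, with a median of -0.52. Across the 60 genes the fold and the log2 range had a Spearman correlation of -0.50 (Pearson -0.47), given as a description, because both measures contain the same control UMIs and the genes are not independent. The medians differed in the same direction within H2A (-1.13 of 13 genes and -0.25 of 3) and H2B (-1.34 of 12 and -0.58 of 4). They also did within H3 (-1.43 of 9 and -0.55 of 2) and H4 (-2.29 of 8 and -0.78 of 4). The smaller-range medians thus rest on few genes. Among those genes 0 of 3 H2A, 2 of 4 H2B, 1 of 2 H3 and 3 of 4 H4 were lower by over 1.5-fold. Hist1h4a had the lowest fold of the 15 members with a smaller range, with a log2 range of 1.83 and a fold of -2.61.

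**Figure D4:**
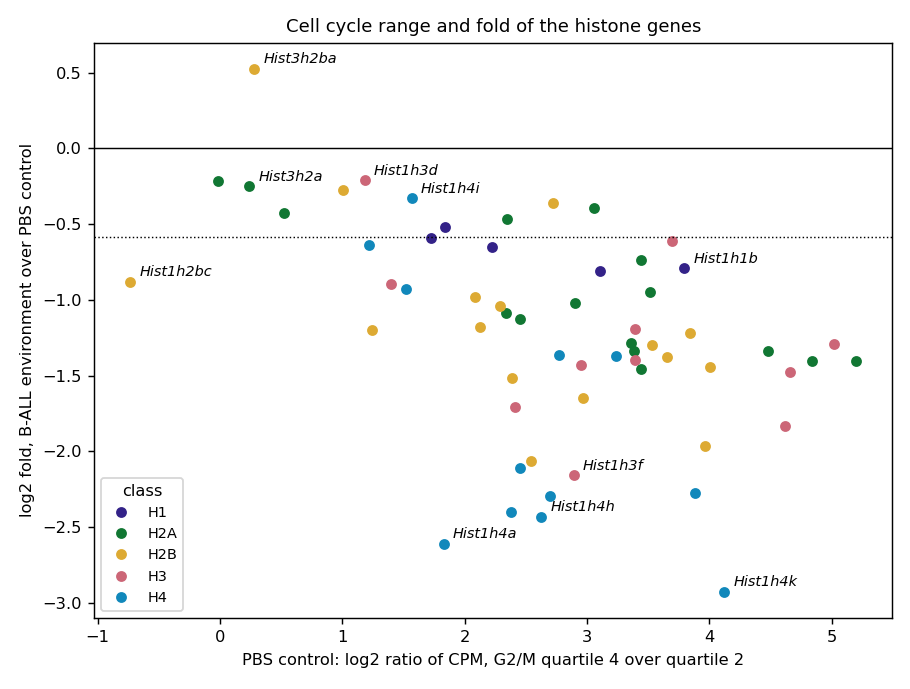
Each point is 1 histone gene; the horizontal axis is the log2 ratio of its control level in G2/M quartile 4 over quartile 2, the vertical axis its log2 fold of the B-ALL environment over the control, colours are classes and the dotted line is 1.5-fold. Genes near level across the cycle (Hist3h2ba, Hist3h2a) lie near or above 0, and most genes with a wide range lie lower; Hist1h2bc, left of 0, lies at -0.88.

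Features of the annotated transcripts that a poly(A)-primed kit could read were compared with the folds. The polyadenylation signal AATAAA was in the annotated transcript of 20 members, whose median log2 fold was -0.77, with 14 lower by over 1.5-fold. The 40 without it had a median of -1.32, with 35 lower by over 1.5-fold. The 20 held 3 H1 and 4 H4 genes, and the 40 held 2 and 8, so the classes were unequally spread. Within classes the medians with and without it were -0.45 and -1.21 in H2A and -0.98 and -1.22 in H2B. They were level in H3 (-1.39 and -1.40, 2 and 9 genes) and -1.52 and -2.29 in H4. The 25 members with 12 or more A in a window of 20 bases had a median of -0.88, against -1.34 for the other 35. Within H2A, H2B and H4 the order was the same (-0.74 and -1.29, -0.98 and -1.22, -0.93 and -2.30). Within H3 it was reversed, at -1.83 for 3 genes and -1.34 for the other 8. Across the 60 genes the largest number of A in such a window had a Spearman correlation of 0.42 with the fold. Members with the stem-loop in the annotated transcript had a median of -1.19, and those without it -1.30. The former held 11 H4 genes and the latter 1, so classes were unequally spread here too. By class, the medians with and without it were -0.84 and -1.34 in H2A and -1.21 and -1.17 in H2B. In H3 they were -1.29 and -1.41 (9 and 2 genes). The splits by stem-loop and AATAAA depend on how far the annotation reaches. Of members without the stem-loop, Hist1h4k is annotated with 312 bases and Hist1h2bn with 381, but Hist2h2be with 2620. The length of the longest annotated transcript had a Spearman correlation of 0.33 with the fold. For the control level the Spearman correlation with the fold was -0.09. Annotated transcripts are not the molecules captured, and how 3' ends or priming bear on the folds was not tested.

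By position, the 28 members in chr13:23531050-23764406 had a median log2 fold of -1.28 and the 15 in chr13:21715763-21837530 a median of -1.45. Between them lie 5 members in chr13:22035164-22043676 with a median of -0.46. Of these, Hist1h4i (-0.33), Hist1h2bk (-0.36) and Hist1h2ag (-0.46) were within 1.5-fold, and Hist1h2ah (-1.40) and Hist1h2bj (-1.38) were not. The 9 members in chr3:96219865-96270132 had a median of -1.09. Hist3h2a and Hist3h2ba on chromosome 11 and Hist4h4 on chromosome 6 are the 3 members outside these stretches, and none of the 3 was lower than -0.64. H2A and H2B genes often lie head to head, and 10 such pairs had 176 to 302 bases between their starts. The H2B gene had the lower fold in 6 of the 10. The partners could differ widely, as Hist1h2ap (-0.95) and Hist1h2br (-2.06), or Hist1h2ah (-1.40) and Hist1h2bk (-0.36).

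Promoters were matched in RefSeq for 54 of the 60 genes (GRCm38, from 250 bases before the start to 50 after). The CCAAT box, searched as CCAAT on both strands, was in all 43 matched promoters of H1, H2A, H2B and H3 genes but in 3 of the 11 of H4 genes, against 37.4% of all promoters. TATAAA, on both strands, was in 31 of 54 (57.4%), against 13.6% of all. The octamer ATTTGCAT, on both strands, was in 11 of 54, namely 6 H2A and 5 H2B genes, against 1.74% of all, and head-to-head pairs share part of the window. The 4 promoters below are the 120 bases before the RefSeq start, 5' to 3' on the gene's strand, and are shown because they contrast the class with the largest difference (the H4 genes Hist1h4h and Hist1h4i) with the most abundant H1 gene and with the 1 higher member. Capitals mark a CCAAT box, a TATA box (TATAAA) or the octamer on either strand.
Hist1h4h, chr13:23530924-23531043, + strand: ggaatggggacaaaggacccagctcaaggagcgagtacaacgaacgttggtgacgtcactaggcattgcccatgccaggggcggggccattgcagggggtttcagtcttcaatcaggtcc
Hist1h4i, chr13:22041363-22041482, - strand: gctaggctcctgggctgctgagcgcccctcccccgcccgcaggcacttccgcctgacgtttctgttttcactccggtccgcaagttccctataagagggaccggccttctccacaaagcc
Hist1h1b, chr13:21780626-21780745, - strand: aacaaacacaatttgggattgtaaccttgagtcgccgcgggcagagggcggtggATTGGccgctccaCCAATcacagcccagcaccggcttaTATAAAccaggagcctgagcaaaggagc
Hist3h2ba, chr11:58948791-58948910, + strand: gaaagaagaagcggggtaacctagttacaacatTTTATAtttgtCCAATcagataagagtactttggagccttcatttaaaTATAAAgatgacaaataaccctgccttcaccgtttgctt
Neither H4 promoter has a capital, the TATAAA of Hist1h4i lying elsewhere in its matched window. Hist1h1b and Hist3h2ba both hold a CCAAT box and a TATA box before the start. Some of these promoters were picked by fold, and how such letters bear on the folds was not tested. A match describes these letters only and says nothing of what binds there.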

How the data were processed

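The submitters' processing notes name Cell Ranger 4, Seurat 4.0.1 and mm10. The authors deposited a matrix of UMI counts without normalization, and its sums equalled the deposited total in 100% of cells. The coordinates of cells on the authors' deposited map are a score without unit. How cells and genes were filtered and how strand and multiply matching reads were handled is not given in the sources used here; no symbol begins with Rps or Rpl. The prefix tm was taken as the B-ALL environment.

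Since no cell is tied to a sample, the planned edgeR quasi-likelihood test could not be run. UMIs were summed per group and scaled by TMM (edgeR 4.0.16). The scaling was fitted anew between the groups in each cluster and quartile, so levels of different clusters or quartiles do not share a scale. Genes with at least 20 UMIs were compared, with exact conditional binomial intervals, and a call means a fold past 1.5. The fold calculation was tested on simulated sums, drawn independently for each gene, without cells, mice or libraries. That checks the calculation only and says nothing of how well the intervals cover differences in these data. Cells were clustered on the map (Leiden, igraph 0.11.9, 30 neighbours, resolution 0.3). A cluster took the name of the marker list most enriched in it (log2 enrichment at least 0.5), if at least 3 of its markers were detected in 10% of its cells and no other list had more markers among its 10 leading genes. Scrublet called 1 control cell and 0 B-ALL environment cells as doublets, too few for its calls to be used, and no doublets were removed; whether any were removed before deposit is not given in the sources used here. Its scores (scanpy 1.11.5) served only to leave out the highest 5% of cells in 1 alternative. Alternatives were other scalings (total UMIs, DESeq2 1.42.0 size factors), depth, cell sets, count minimums and clusters.

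Members and lists were chosen with earlier results of these data known. Members are given by values, and from each of the supply and variant lists the 4 with the largest folds at 10 CPM or more, plus Slbp, Npat, H2afx and H2afz; Zfp473, H2afy2 and Gas2l3 were named after their values were seen. Annotation is GENCODE M21, and promoters are from RefSeq, where 6 members had no matched entry.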

Additional observations from a re-analysis of the deposited data

How the results depend on the processing

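All 5 class folds stayed below 0, in the order from H1 to H4, under the 9 alternatives. H1 ranged from -0.75 to -0.64, H2A from -0.99 to -0.85, H2B from -1.29 to -1.09, H3 from -1.53 to -1.38 and H4 from -1.66 to -1.47. Many values moved beyond their narrow counting intervals. Scaling by total UMIs gave -0.68, -0.87, -1.19, -1.41 and -1.49 for H1, H2A, H2B, H3 and H4. Total UMIs without mitochondrial genes gave -0.65, -0.85, -1.16, -1.38 and -1.47, and 1 member, Hist3h2ba, was then higher by over 1.5-fold. Thinning all cells to 1 depth gave -0.73, -0.98, -1.09 and -1.38 for H1, H2A, H2B and H3. Leaving out the highest Scrublet scores gave -0.73 for H1 and -0.92 for H2A. Equal cells per map cluster gave -0.64 for H1, -0.86 for H2A and -1.40 for H3, and equal cells per cycle range -1.19 for H2B and -1.55 for H4. Equal cells per cluster and cycle range together, chosen after seeing the data, gave -0.75, -0.99, -1.29, -1.53 and -1.66. The cause of these moves was not tested. DESeq2 size factors and leaving out the shallow cells moved no class beyond its interval. Members lower by over 1.5-fold numbered 46 to 50 across the settings. The share of class folds within clusters lower by over 1.5-fold was 91.7%, against 89.2% with finer clusters, 88.6% with marker classes per cell and 85.0% with equal S phase ranges. No paired analysis was possible because no cell is tied to a sample, and no sample could be left out for the same reason. Depth limits the rarest members, such as Hist1h2ao, whose interval was [-0.80, 0.37].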
